A study of Mus musculus with 9 samples.

Results

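The fibroblast growth factor (FGF) genes described here in embryonic mouse hearts were the intracellular factors *Fgf13* and *Fgf12*, the secreted ligands *Fgf1*, *Fgf9* and *Fgf10*, and the receptors *Fgfr1*, *Fgfr2* and *Fgfr3*. *Fgf13* was chosen because its rise in *Ctcf* homozygotes was the strongest among well measured genes, and the others were taken by name as its relatives. Of the 9 genes named by this rule, 8 were among the 14011 genes in the table, and *Fgfr4* was not analysed here. *Fgf13* is therefore described in the homozygotes without a test, while the other 7 genes, which were not chosen by their values, were tested in every comparison.

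The 3 genotypes, of mixed strain, were compared at E10.5, with 3 libraries of polyA RNA for each and a pool of 6 hearts in each library (n = 3 pools per genotype). The homozygotes (*Ctcf* fl/fl; *Nkx2.5-Cre*/+) as well as the heterozygotes (*Ctcf* fl/+; *Nkx2.5-Cre*/+) carried the driver. Controls had no Cre and came from the same crosses. The labels give the controls as *Ctcf* fl/fl and the study's methods give them as *Ctcf* fl/+, so their number of floxed alleles is not settled here. The table's columns name the homozygotes as the labels do, whereas its control columns are abbreviated as Het and its heterozygote columns as DH, and these were assigned from the study's methods and its tables of group averages, not from the labels alone. *Nkx2.5-Cre* recombines floxed alleles in early cardiac cells, and cells outside that lineage keep intact alleles. A comparison with controls includes the driver as well as the deletion, and their effects cannot be told apart in it.

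FGF signaling works in a pair of ways in the heart. Secreted FGFs bind FGF receptors, which are tyrosine kinases, together with heparan sulfate on cell surface and matrix proteins. The receptors then act through FRS2, SHP2 and the RAS to ERK cascade, and ERK activity raises *Etv4*, *Etv5*, *Dusp6* and the Sprouty genes, several of which restrain the pathway in turn. Intracellular FGFs, also called FGF homologous factors, lack a signal for secretion, do not work as receptor ligands in the usual way, and bind the tails of voltage-gated sodium channels. FGF10 and FGF9 are known for roles in the growth of the embryonic heart.

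*Fgf13* lies at chrX:56315322-56821248 on the minus strand of NCBIM37. Its annotated transcripts start at several sites far apart. The 250 bases upstream of 3 of these starts are shown because the deleted protein, CTCF, is a sequence-specific DNA-binding factor and *Fgf13* had the largest rise of the FGF genes. Capitals mark the pentamer CCCTC, which is part of the CTCF recognition sequence, on either strand (read as GAGGG on the other strand). The window upstream of transcript *Fgf13*-006 is chrX:56821249-56821498, that of *Fgf13*-008 is chrX:56419342-56419591 and that of *Fgf13*-001 is chrX:56387614-56387863.
Fgf13-006: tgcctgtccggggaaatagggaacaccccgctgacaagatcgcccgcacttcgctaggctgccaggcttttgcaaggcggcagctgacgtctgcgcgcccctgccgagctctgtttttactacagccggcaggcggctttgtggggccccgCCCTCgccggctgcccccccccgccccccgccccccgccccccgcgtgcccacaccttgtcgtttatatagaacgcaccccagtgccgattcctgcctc
Fgf13-008: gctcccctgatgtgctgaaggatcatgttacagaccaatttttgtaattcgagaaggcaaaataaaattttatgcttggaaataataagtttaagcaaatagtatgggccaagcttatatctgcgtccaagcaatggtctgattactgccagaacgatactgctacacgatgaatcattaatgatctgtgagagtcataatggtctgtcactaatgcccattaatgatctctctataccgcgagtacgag
Fgf13-001: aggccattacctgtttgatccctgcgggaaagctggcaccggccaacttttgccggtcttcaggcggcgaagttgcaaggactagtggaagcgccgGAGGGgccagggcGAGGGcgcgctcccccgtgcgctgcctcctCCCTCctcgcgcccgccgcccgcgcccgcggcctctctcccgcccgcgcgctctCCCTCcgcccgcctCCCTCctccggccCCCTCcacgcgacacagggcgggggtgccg

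The window of *Fgf13*-001 was the richest in the pentamer, with 4 matches on the forward strand and 2 on the reverse strand in a sequence of 74.4% GC. That of *Fgf13*-006 held 1 match at 68.4% GC, and that of *Fgf13*-008 held none at 39.2% GC. The pentamer was common, since 67.9% of the 32608 windows of 250 bases upstream of the starts of 13164 genes in the table held at least 1. A longer CTCF core motif of 12 letters, searched on either strand, was found in none of the *Fgf13* windows, in 1 window of the other FGF genes (*Fgfr1*-013) and in 2.45% of all windows. A match is a description of these letters and not a binding site. CTCF binding was not measured in the data analysed here.

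Because the intracellular FGFs are related in sequence, reads of one could in principle be counted for another. The coding sequences of *Fgf13* (transcript *Fgf13*-001) and *Fgf12* (*Fgf12*-202) were 67.9% identical over 714 aligned bases. The longest exact run shared by any of their protein-coding transcripts, untranslated parts included, was 14 bases. A 60-base coding stretch of each, in which 47 bases were identical and 13 differed, is shown with the differing bases in capitals. It spans chrX:56320639-56320698 in *Fgf13* and chr16:28189581-28189640 in *Fgf12*, both on the minus strand of NCBIM37.
Fgf13: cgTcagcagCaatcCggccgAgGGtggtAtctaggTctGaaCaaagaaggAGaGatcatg
Fgf12: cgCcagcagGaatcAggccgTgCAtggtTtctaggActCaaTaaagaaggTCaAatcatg

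Among the receptors, the coding sequences of *Fgfr1* and *Fgfr2* were 71.1% identical, and the longest run shared by their transcripts was 20 bases. Those of *Fgfr1* and *Fgfr3* were 67.7% identical, with a longest run of 26 in their transcripts. One longer run, of 58 bases, was shared by transcripts of *Fgf13* and *Fgf10* and was almost wholly a TC repeat (55 of its 57 dinucleotides). In the annotation, *Fgf13*, *Fgf12*, *Fgf1*, *Fgf9* and *Fgfr3* shared no exonic base with another gene. *Fgfr2* shared 314 exonic bases with *Ctbp2*, and *Fgfr1* and *Fgf10* shared 886 and 123 with genes not analysed here, so the values of these 3 genes could include reads of the overlapping gene.

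Expression is given as the authors' normalized value, made by adding 0.5 to the reads of a gene and dividing by the effective size of its library. A gene was called where its limma p, adjusted by Benjamini-Hochberg over all 14011 genes, was under 0.05. Calls were also checked in 19 alternative fits, which changed 1 setting or left out 1 library each. Libraries held from 4294537 to 11629365 reads, and 1 read was worth a value between 0.0901 and 0.231. *Ctcf* itself, the check of the deletion, measured 121, 122 and 122 in controls, 101, 94.2 and 97.0 in heterozygotes and 79.6, 80.0 and 84.7 in homozygotes, without overlap between any of the groups. All 12 cardiomyocyte markers were detected in every library, and their sums were 16781 to 19593 in controls, 19662 to 22027 in heterozygotes and 16264 to 18881 in homozygotes, highest in the heterozygotes without overlap. Of the 12, 3 were called lower (*Actn2*, *Ryr2* and *Nppa*) and 1 higher (*Myl4*) in homozygotes against controls. Against heterozygotes 5 were called lower and 0 higher, where 6.7% of all genes were called lower. Control replicate 1 stood apart in endoderm RNA: 8 visceral endoderm genes, a list added after the values were seen, summed to 1092 in it and to 12.4 to 77.8 in the other 8 libraries. Without this library the log2 differences between homozygotes and controls given below were 1.53 for *Fgf13*, -0.22 for *Fgf12*, -0.41 for *Fgf1*, -0.34 for *Fgf9*, 0.34 for *Fgf10*, -0.15 for *Fgfr1*, -0.17 for *Fgfr2* and 0.0331 for *Fgfr3*, the last with the opposite sign to that with all libraries. Markers of other cell types differed in both directions between homozygotes and controls. All 7 erythroid markers were called higher, with sums of 28320 to 40272 in controls and 49757 to 65560 in homozygotes. All 6 epicardial markers were higher, and 4 of them were called (sums of 411 to 473 and 572 to 639). The sums of the cushion mesenchyme markers are given beside *Fgfr1*. Endothelial and endocardial markers summed to 1098 to 1231 in controls and 925 to 1111 in homozygotes, with 1 of 8 called higher and 2 lower. Of all genes, 7.19% were called higher and 8.03% lower in this comparison. In such bulk samples, fewer cells of a type and less RNA per cell cannot be told apart.

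*Fgf13* was expressed in every heart pool and was 2.99 times as abundant in homozygotes as in controls. Its values were 24.7, 26.2 and 27.6 in controls, 27.7, 29.2 and 31.0 in heterozygotes and 76.0, 78.8 and 80.0 in homozygotes. Every homozygote was thus far above every other library, while heterozygotes lay only just above controls. The means were 26.2 ± 1.41, 29.3 ± 1.66 and 78.3 ± 2.08 (SD, n = 3 each), so that homozygotes reached 299% of the control mean and 267% of the heterozygote mean. On the log2(value + 0.5) scale used throughout, the difference was 1.56 (SE 0.08) from controls and 1.40 (SE 0.08) from heterozygotes. These values chose the gene and are given without a test.

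**Figure D1:**
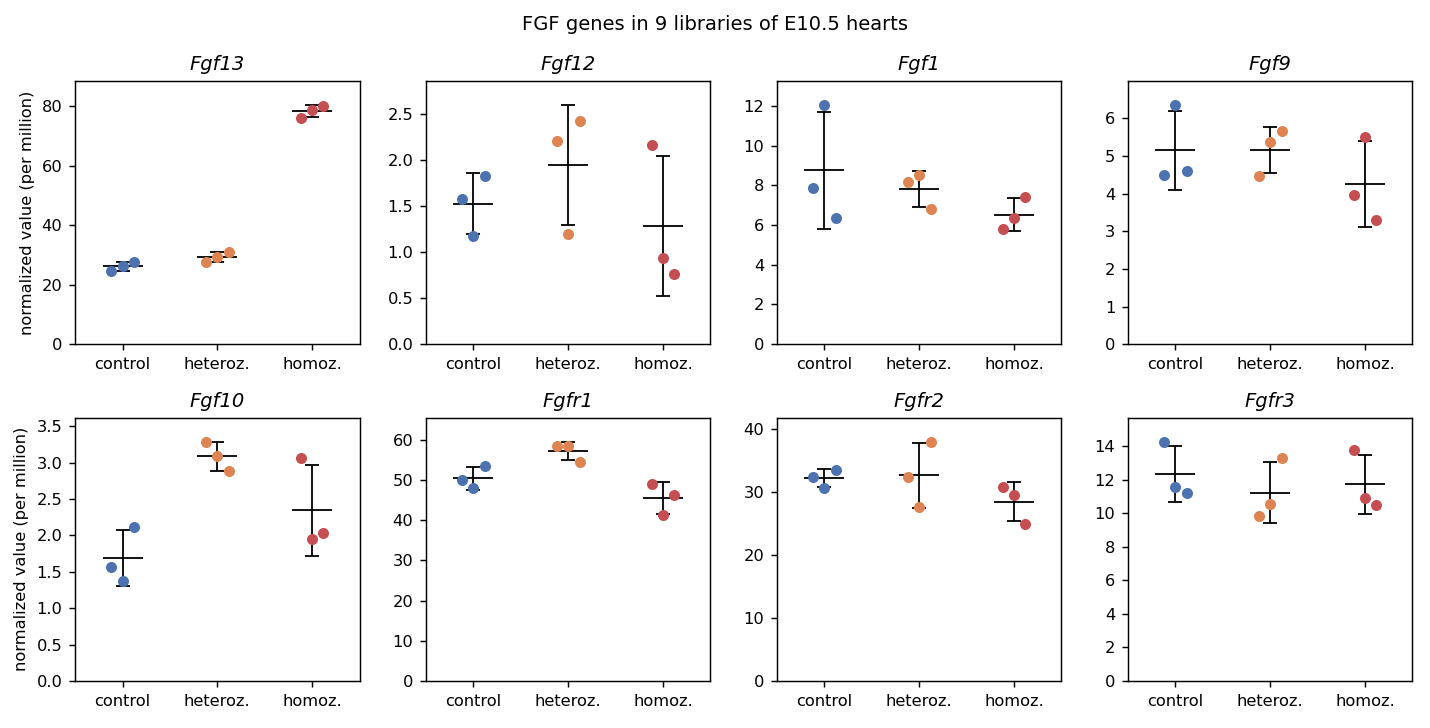
Normalized value (y axis, from 0) of the 8 FGF genes in each of the 9 libraries, by genotype, with replicates 1 to 3 from left to right and black bars for the mean and SD. *Fgf13* in homozygotes (76.0 to 80.0) stands clear of all other libraries (24.7 to 31.0), whereas for the other genes homozygotes overlap with controls.

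Between heterozygotes and controls, which share their libraries with the comparisons above, the log2 difference of *Fgf13* was 0.16 (95% confidence interval -0.00 to 0.32). It did not pass the test (adjusted p = 0.677), although all 3 heterozygotes were above all 3 controls. Of all genes, 14.3% showed no overlap between heterozygotes and controls. The change of *Fgf13* in heterozygotes was 0.103 of that in homozygotes on the log2 scale, while *Ctcf* values had fallen to 80.1% of the control mean in heterozygotes and 67.0% in homozygotes.

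Among the 9165 genes with a value of at least 10 in every library, *Fgf13* had the highest log2 difference between homozygotes and controls. The genes just behind it were *Acp6* (1.39), *9030625A04Rik* (1.25) and the lysosomal protease gene *Ctsd* (1.24). It was also first against heterozygotes, ahead of *9030625A04Rik* (1.16). With the looser condition of a mean value of at least 10, met by 9847 genes in all, *Fgf13* was in position 17 against controls, between *Gm9000* (1.57) and *Mnd1* (1.49), and in position 11 against heterozygotes. Its rank thus depended on leaving out genes that were low in some libraries. The gene was well covered, with 134 to 888 reads per library.

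*Fgf13* is on the X chromosome, so levels of other sex-linked genes are given with it. The 338 X-linked genes whose mean value reached 10 had a median log2 difference of -0.01 between homozygotes and controls. Among them, 30 (8.88%) were called higher and 35 lower. Of all 14011 genes, at any level, 7.19% were called higher and 8.03% lower, so these shares are not matched for expression. The summed values of 4 Y-linked genes varied between pools, at 87.3, 129 and 129 in controls, 52.0, 88.4 and 106 in heterozygotes and 42.7, 99.3 and 45.5 in homozygotes. Of these genes, *Ddx3y* and *Kdm5d* were called lower in homozygotes against controls, where 8.03% of all genes were called lower. None was called against heterozygotes. *Xist*, the RNA that coats the inactive X, was not called (510, 237 and 336 in controls and 436, 325 and 361 in homozygotes). The part of the sex makeup of the pools in the value of *Fgf13* was not tested.

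Markers of neurons, a cell type known to express *Fgf13* strongly, were low. The 5 neuronal and neural crest markers analysed summed to 26.1 to 30.1 in controls, 24.1 to 32.6 in heterozygotes and 35.6 to 38.7 in homozygotes. Of the 5, 1 was called, the neuronal tubulin gene *Tubb3*, at a log2 difference of 0.63 from controls (adjusted p = 0.00989), where 15.2% of all genes were called. No marker of this list was at 0 in any library, and 4 further genes of the list were not analysed here. The part of these cells, or of the erythroid and epicardial RNA, in the value of *Fgf13* was not tested.

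No gene of the table started within 1 Mb of the outermost start of *Fgf13*. *Rbmx*, which encodes an RNA-binding protein and starts 2175 kb away as the nearest gene on one side, averaged 89.0 in controls and 84.8 in homozygotes (log2 -0.07, adjusted p = 0.547). It was not called. Of the 14 nearest neighbors of 7 of the FGF genes, 1 was called in homozygotes against controls, *Arhgap26* next to *Fgf1* (log2 -0.38, adjusted p = 0.0297), where 15.2% of all genes were called, and none was called against heterozygotes. *Fgfr2* is left out of this count because 1 of its annotated transcripts starts far from the others, with 17 genes of the table in between.

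The genes whose pattern was most like that of *Fgf13* over the 9 libraries were *Pgam2* (Pearson r = 0.989), a muscle phosphoglycerate mutase, *Hint1* (0.989), *Ccdc136* (0.988), the cohesin subunit gene *Stag1* (0.988) and *Stra13* (0.985), among the 9846 other genes whose mean value was 10 or more. Each averaged higher in homozygotes, and with 3 groups of libraries such values of r include any difference that both genes share between groups. *Pgam2* averaged 140 in controls, 161 in heterozygotes and 303 in homozygotes. Of the relatives, none was close, with r from -0.69 for *Fgfr1* to 0.09 for *Fgf10*.

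The other intracellular FGF, *Fgf12*, was near the lower limit of measurement, with 5 to 22 reads per library. Values of *Fgf12* were 1.57, 1.17 and 1.83 in controls, 2.21, 1.198 and 2.42 in heterozygotes and 2.16, 0.93 and 0.77 in homozygotes, so the 3 groups overlapped. The log2 difference between homozygotes and controls was -0.25, with a 95% confidence interval of -0.97 to 0.48 (adjusted p = 0.674), and that from heterozygotes was -0.49 (-1.22 to 0.23, adjusted p = 0.370). These intervals are wide in both directions, so at this depth only large changes of *Fgf12* could have been detected. Another intracellular factor, *Fgf11*, was also low (2.85, 4.42 and 3.58 in controls and 3.29, 2.45 and 3.11 in homozygotes) and was not called (log2 -0.25, adjusted p = 0.508). *Fgf14* was not analysed here.

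The secreted ligands *Fgf1*, *Fgf9* and *Fgf10* were low and were not called in any comparison. *Fgf1*, a ligand that can bind all FGF receptors, measured 7.86, 12.1 and 6.36 in controls, 8.19, 8.52 and 6.80 in heterozygotes and 5.79, 6.35 and 7.43 in homozygotes. Control replicate 2 was the highest of the 9 libraries, and the groups overlapped. The log2 difference between homozygotes and controls was -0.36 (95% confidence interval -0.80 to 0.09, adjusted p = 0.272), and without control replicate 2 it was -0.12.

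*Fgf9*, which is made by the epicardium and endocardium of the embryonic heart, measured 4.48, 6.35 and 4.60 in controls, 4.46, 5.36 and 5.65 in heterozygotes and 3.97, 5.50 and 3.29 in homozygotes. The groups overlapped, with a log2 difference of -0.26 between homozygotes and controls (-0.72 to 0.20, adjusted p = 0.459). The epicardial and the endothelial and endocardial marker sums of these libraries are given above, and their part in the level of *Fgf9* was not tested.

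*Fgf10*, a marker of the second heart field whose product signals mainly through FGFR2, was the one ligand whose heterozygotes were apart from controls. It measured 1.57, 1.37 and 2.12 in controls, 3.29, 3.09 and 2.88 in heterozygotes and 3.07, 1.95 and 2.03 in homozygotes. All heterozygotes were above all controls, and homozygotes overlapped with both. The log2 difference between heterozygotes and controls was 0.73 (95% confidence interval 0.20 to 1.25) and was not called (adjusted p = 0.489). Only 11 to 33 reads stood behind each value. The 3 pharyngeal and outflow progenitor markers analysed overlapped between controls (summed 30.6 to 34.5) and heterozygotes (26.2 to 42.1).

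Of the 15 other ligand genes listed, *Fgf5*, *Fgf7* and *Fgf18* were measured and 12 were not analysed here. *Fgf7*, a ligand of the FGFR2b isoform, measured 1.45, 0.66 and 1.096 in controls, 1.72, 1.32 and 1.96 in heterozygotes and 0.57, 0.25 and 0.50 in homozygotes. Homozygotes were below all other libraries, with 1 to 5 reads in each. Against heterozygotes *Fgf7* was called lower (log2 -1.21, SE 0.32, adjusted p = 0.0222), a call lost without any one of 4 libraries, heterozygote replicates 1 and 3 and homozygote replicates 2 and 3 (adjusted p from 0.0527 to 0.0747), and DESeq2 gave it no adjusted p. Its log2 difference ranged from -2.04 to -0.89 over the alternative fits. Against controls it was not called (-0.73, adjusted p = 0.142). *Fgf18* measured 1.92, 2.29 and 2.70 in controls and 2.16, 4.32 and 3.11 in homozygotes (log2 0.36, adjusted p = 0.377), and *Fgf5* averaged 0.92 and 1.66 (log2 0.71, adjusted p = 0.265).

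The receptor genes were better covered than the ligands. *Fgfr1*, the main receptor of mesenchymal and cardiac progenitor cells, measured 49.99, 47.9 and 53.6 in controls, 58.6, 58.6 and 54.6 in heterozygotes and 49.2, 41.4 and 46.2 in homozygotes. Heterozygotes were the highest, without overlap with either other group, while homozygotes and controls overlapped. Homozygotes were at 79.6% of the heterozygote mean, a log2 difference of -0.33 (SE 0.08, 95% confidence interval -0.50 to -0.16, adjusted p = 0.0154). This was the one call among the 7 relatives in that comparison, in which 13.6% of all 14011 genes were called and 30.8% showed no overlap. Markers of cushion mesenchyme, a tissue that expresses *Fgfr1*, had sums of 317 to 338 in controls, 302 to 334 in heterozygotes and 238 to 265 in homozygotes, and 2 of 6 (*Postn* and *Pdgfra*) were called lower against controls and against heterozygotes. The cardiomyocyte marker sums were, like *Fgfr1*, highest in heterozygotes. The part of either cell type in the level of *Fgfr1* was not tested.

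The call for *Fgfr1* was close to the threshold. It was lost without heterozygote replicate 1 (log2 -0.31, adjusted p = 0.0522), without heterozygote replicate 2 (-0.31, adjusted p = 0.0536) and without homozygote replicate 2 (-0.26, adjusted p = 0.0540). Against controls, the homozygotes' difference was -0.15 (-0.32 to 0.02, adjusted p = 0.232), and heterozygotes differed from controls by 0.18 (adjusted p = 0.639).

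*Fgfr2*, the receptor for FGF10 and FGF7 in its epithelial isoform, measured 32.4, 30.7 and 33.4 in controls, 32.3, 27.6 and 38.0 in heterozygotes and 30.8, 29.5 and 24.9 in homozygotes. Homozygotes reached into the range of both other groups, and the log2 difference from controls was -0.18 (-0.43 to 0.07, adjusted p = 0.324). Its overlapping neighbor *Ctbp2*, a transcriptional co-repressor gene, was not called either (-0.22, adjusted p = 0.0610).

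*Fgfr3* overlapped between all 3 genotypes. Its values were 14.3, 11.5 and 11.2 in controls, 9.86, 10.5 and 13.3 in heterozygotes and 13.7, 10.9 and 10.5 in homozygotes. The log2 difference between homozygotes and controls was -0.07 (-0.41 to 0.26, adjusted p = 0.803).

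**Figure D2:**
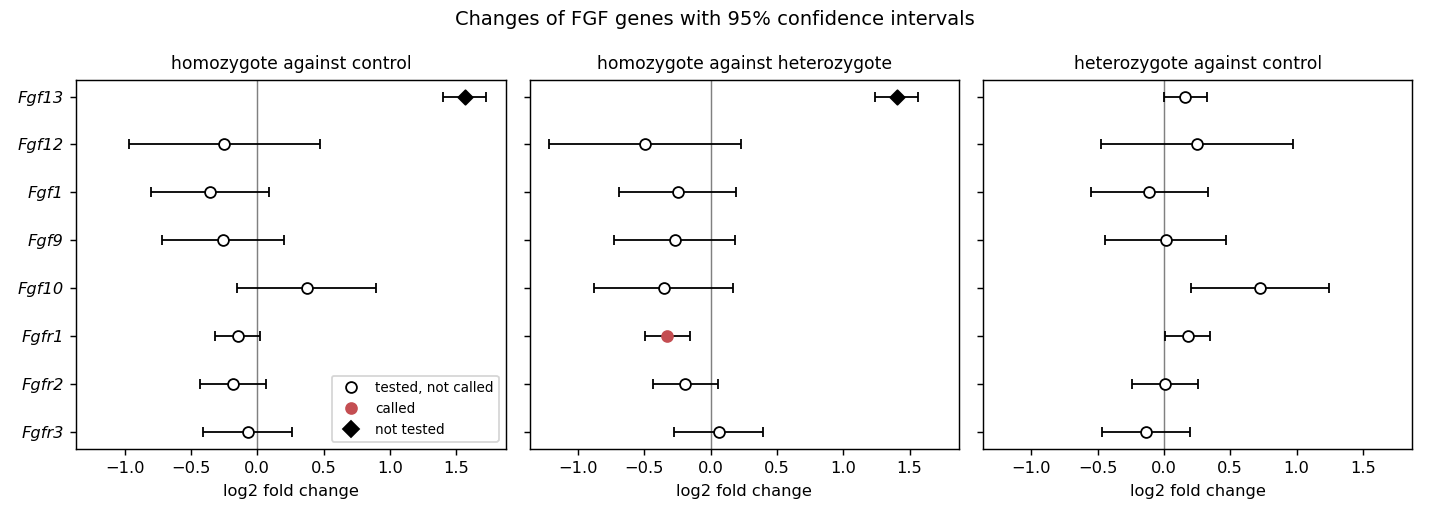
Log2 fold change (x axis) of the 8 FGF genes in the 3 comparisons, with bars for the 95% confidence interval, open circles for genes tested and not called, a red circle for the gene called and diamonds for *Fgf13* where it was not tested. *Fgf13*, chosen for its rise, is drawn at 1.56 against controls, and *Fgfr1* against heterozygotes is the one filled circle.

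Over the 7 relatives, 0 were called in homozygotes against controls by limma, where 15.2% of all genes were called. None of the 7 had an unadjusted p under 0.05 (29.6% of all genes did), none was without overlap between the groups (33.2% of all genes were), and edgeR and DESeq2 on the recovered reads also called none. Their median log2 difference was -0.18, with 6 of 7 values below 0, beside a median of -0.00 over all genes. The median was -0.07, with 5 of 7 below 0, once the trend with gene length was removed, -0.12 without control replicate 2 and -0.09 without homozygote replicate 3. Against heterozygotes the median was -0.27, again with 6 of 7 below 0 and 1 at an unadjusted p under 0.05 (27.6% of all genes), and the homozygote libraries were shared by both comparisons. In heterozygotes against controls, 0 of 8 members were called (2 at an unadjusted p under 0.05, *Fgf10* and *Fgfr1*, and 3 without overlap). Of all genes, 0.143% were called, 7.37% reached that unadjusted p and 14.3% showed no overlap.

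Because genes of different length cannot be compared by their values directly, levels were also divided by exonic length. Per kb, *Fgf13* (6.51) and *Fgfr1* (6.26) were the most abundant FGF genes in controls and overlapped between libraries. Next came *Fgfr2* (4.12), apart from both its neighbors, then *Fgf1* (1.88) and *Fgfr3* (1.79), which overlapped. *Fgf9* (1.21) followed, and *Fgf12* (0.494) and *Fgf10* (0.367) were lowest and overlapped. In heterozygotes the order of the first 6 genes was the same, with *Fgf13* at 7.29 and *Fgfr1* at 7.10. In homozygotes *Fgf13* stood at 19.5 per kb, apart from *Fgfr1* at 5.66, and the libraries of *Fgfr3*, *Fgf1* and *Fgf9* ran into one another.

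**Figure D3:**
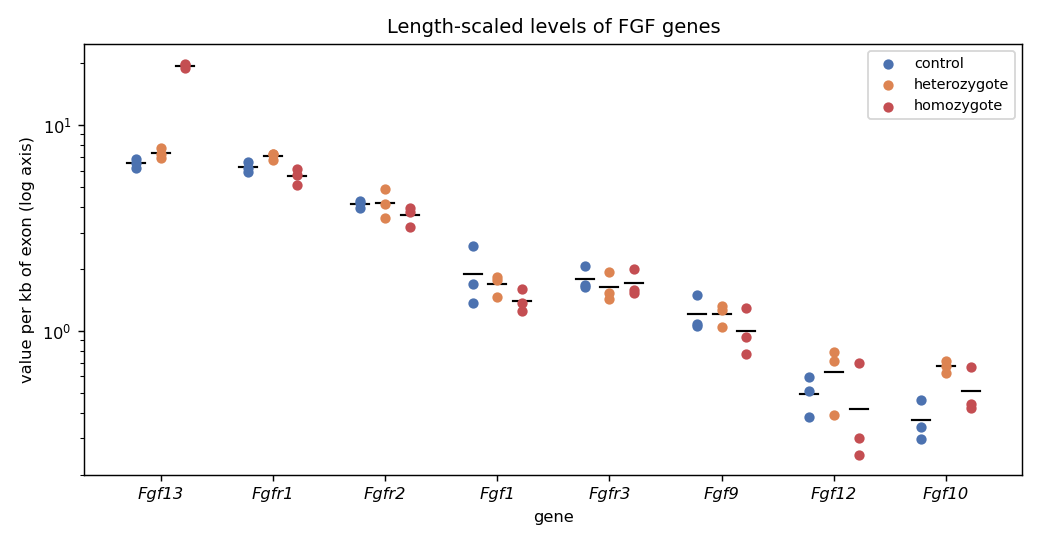
Normalized value per kb of exon (y axis, log scale) of the 8 FGF genes, with one point per library, colors for genotype and bars for the mean. In controls *Fgf13* (mean 6.51) and *Fgfr1* (6.26) are level, and in homozygotes *Fgf13* (19.5) is alone at the top.

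Genes for co-receptors and heparan sulfate, which hold secreted FGFs at the receptor, were more often called lower than higher in homozygotes. Of the 27 genes analysed from a list of 31, 7 were called lower and 1 higher against controls, with a median log2 difference of -0.13. Against heterozygotes 9 were called lower and 0 higher, with a median of -0.22. Of all genes, 8.03% were called lower and 7.19% higher against controls, and 6.7% lower and 6.87% higher against heterozygotes. Against controls the counts were 4 lower and 0 higher without the mean-variance trend, 5 and 0 without control replicate 3, and 10 and 0 without homozygote replicate 1. Against heterozygotes the lower count was 4 without the trend and 5 without heterozygote replicate 2 or homozygote replicate 3, and in the last of these the median was -0.12. With the trend with gene length removed, 5 were lower against controls (median -0.08) and 6 against heterozygotes. The erythroid, epicardial and cushion mesenchyme marker sums also differed between these libraries, as given above, and their part in the levels of this list was not tested.

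*Gpc1*, a glypican that binds FGFs through its heparan sulfate chains, showed the largest difference of the list. It measured 62.9, 67.5 and 69.5 in controls, 71.9, 82.9 and 57.1 in heterozygotes and 43.0, 33.4 and 34.7 in homozygotes. Homozygotes were below all other libraries, with a log2 difference of -0.85 from controls (SE 0.12, adjusted p = 0.000673) and -0.91 from heterozygotes (SE 0.12, adjusted p = 0.000516). *Flrt3*, a membrane protein that associates with FGF receptors, measured 50.5, 50.1 and 52.3 in controls, 57.2, 50.8 and 47.9 in heterozygotes and 34.4, 37.5 and 30.0 in homozygotes (log2 -0.58 from controls, adjusted p = 0.00117).

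*Ext2*, which encodes a polymerase of heparan sulfate chains, fell by 0.50 on the log2 scale against controls, from a mean of 58.0 to 41.0 (adjusted p = 0.00242). The syndecan gene *Sdc2* fell by 0.41, from 41.8 to 31.3 (adjusted p = 0.00649). Calls for *Gpc1*, *Flrt3*, *Ext2* and *Sdc2* held in all 19 alternative fits, against controls and against heterozygotes. *Sulf2*, which encodes an enzyme that removes sulfate groups from heparan sulfate, fell by 0.60 against heterozygotes (adjusted p = 0.00598), a call lost in 1 of 19 alternatives. Against controls *Sulf2* fell by 0.42 (adjusted p = 0.0301), a call lost in 6 of 19. Another glypican, *Gpc4*, was the gene called higher against controls (34.6 to 51.6, log2 0.55, adjusted p = 0.0217), and its call was lost in 5 of 19 alternatives. *Fgfrl1*, the receptor without a kinase domain, was not called, with values of 36.04 to 42.4 in controls and 34.6 to 38.2 in homozygotes (log2 -0.10, adjusted p = 0.491).

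**Figure D4:**
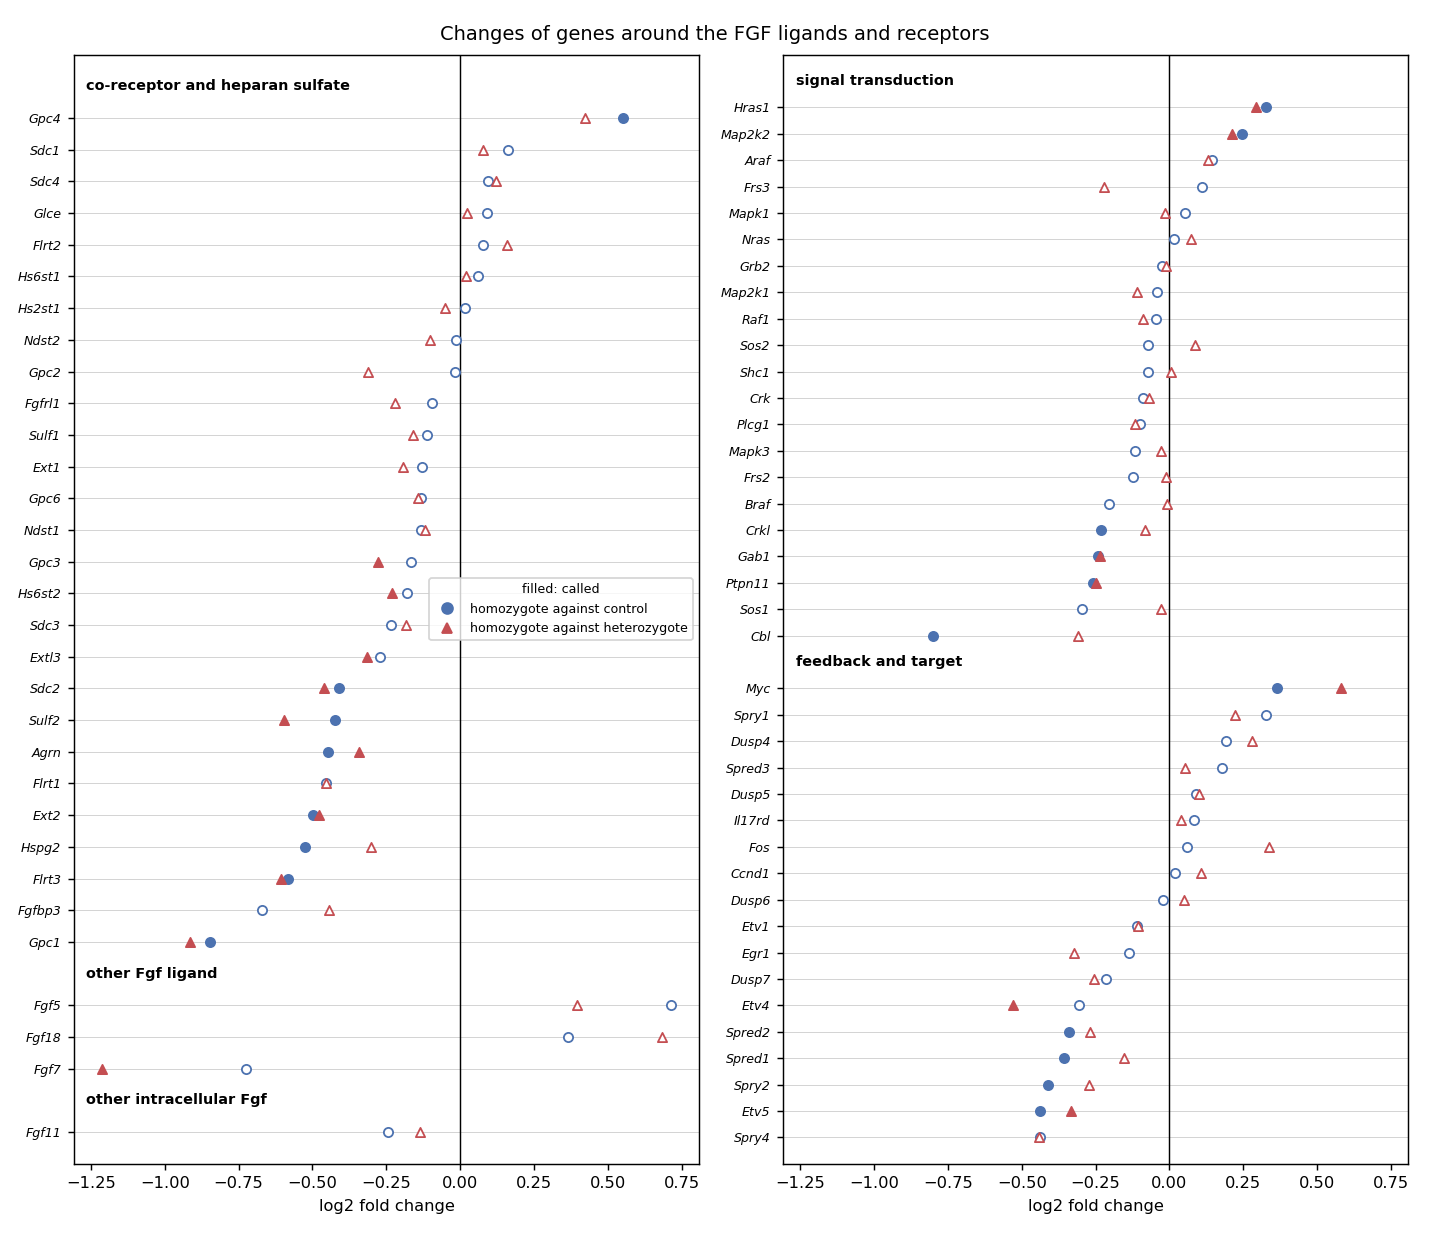
Log2 fold change (x axis) of genes from the co-receptor, signal transduction, feedback and other Fgf lists, with circles for homozygotes against controls, triangles for homozygotes against heterozygotes and filled symbols for genes called. *Gpc1*, *Flrt3*, *Ext2* and *Sdc2* are filled on the left in both comparisons, and the signal transduction genes *Hras1* and *Map2k2* are filled on the right.

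Signal transduction genes between the receptors and ERK differed in both directions. All 22 genes of the list were measured, with 3 called higher and 4 lower against controls (median log2 difference -0.07) and 3 higher and 2 lower against heterozygotes (median -0.02). The shares of all genes were 7.19% higher and 8.03% lower, and 6.87% higher and 6.7% lower. Genes called higher in both comparisons included *Hras1* (56.5 to 71.0, log2 0.33 from controls, adjusted p = 0.0131) and the MAP kinase kinase gene *Map2k2* (107 to 127, log2 0.24, adjusted p = 0.0169). The call of *Hras1* was lost in 3 of 19 alternative fits against controls and 4 against heterozygotes, and that of *Map2k2* in 4 and 9.

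*Cbl*, which encodes a ubiquitin ligase that promotes degradation of receptor tyrosine kinases, was the most reduced of the list. It measured 41.5, 32.8 and 48.2 in controls, 24.4, 28.2 and 33.8 in heterozygotes and 22.8, 24.0 and 22.1 in homozygotes. Homozygotes were below all other libraries, and the difference from controls was called (log2 -0.80, SE 0.14, adjusted p = 0.00197) in the main and all 19 alternative fits. The difference of homozygotes from heterozygotes was not called (-0.31, adjusted p = 0.159), nor was that of heterozygotes from controls (-0.49, adjusted p = 0.343).

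*Ptpn11*, the gene for the phosphatase SHP2, measured 277, 289 and 298 in controls and 246, 237 and 239 in homozygotes (log2 -0.26, adjusted p = 0.00949). The adaptor genes *Gab1* (-0.24, adjusted p = 0.0242) and *Crkl* (-0.23, adjusted p = 0.0322) were called lower against controls as well. The call for *Ptpn11* was lost in 2 of 19 alternatives, among them the removal of the trend with gene length (log2 -0.15, adjusted p = 0.110). That for *Gab1* was lost in 6 and that for *Crkl* in 9. The counts of the list against controls became 0 higher and 3 lower without control replicate 3 or without homozygote replicate 3, 2 and 2 without control replicate 1, control replicate 2 or homozygote replicate 1, and 0 and 1 without the mean-variance trend. With the trend with gene length removed they were 4 higher and 2 lower against controls (median -0.01) and 3 higher and 0 lower against heterozygotes. Against heterozygotes the counts fell to 1 higher and 1 lower without homozygote replicate 3, 2 and 0 without heterozygote replicate 2, and 1 and 0 without the trend.

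The feedback regulators and targets of FGF to ERK signaling did not move as one. Of 18 genes analysed from a list of 20, 4 were called lower and 1 higher against controls, with a median log2 difference of -0.07, and 2 lower and 1 higher against heterozygotes, with a median of -0.03. Of all genes, 15.2% and 13.6% were called in these comparisons. Against controls the counts were 1 lower and 1 higher without control replicate 2, and 2 and 0 without control replicate 3. Against heterozygotes the lower count was 0 without heterozygote replicate 1, without heterozygote replicate 2, without homozygote replicate 3 or by DESeq2. *Dusp6*, a phosphatase of ERK that is often used as a readout of FGF signaling, overlapped between all 3 genotypes. It measured 48.6, 53.5 and 56.5 in controls, 55.0, 46.5 and 49.3 in heterozygotes and 52.3, 51.5 and 51.9 in homozygotes (log2 -0.02 from controls, adjusted p = 0.884).

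*Etv5*, an ETS factor induced by FGF signals, was lower in every homozygote. It measured 42.0, 39.9 and 39.7 in controls, 37.8, 35.6 and 39.6 in heterozygotes and 26.001, 35.1 and 29.0 in homozygotes. The log2 difference from controls was -0.44 (SE 0.10, adjusted p = 0.0109) and was called in all 19 alternative fits, though not at a threshold of 0.01. That from heterozygotes was -0.33 (adjusted p = 0.0433) and was lost in 14 of 19. Homozygote replicate 2 (35.1) lay close to the lowest heterozygote (35.6), and the call was kept in the fit without that homozygote replicate. *Etv4*, its close relative, measured 6.24, 6.18 and 6.08 in homozygotes and 8.65 to 9.40 in heterozygotes (log2 -0.53, adjusted p = 0.0237, a call lost in 5 of 19 alternatives), and was not called against controls (-0.31, adjusted p = 0.164).

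Among the Sprouty genes, which encode inhibitors of receptor tyrosine kinase signaling, *Spry2* was called lower against controls (27.6, 33.3 and 31.7, against 22.8, 22.4 and 23.8 in homozygotes, log2 -0.41, adjusted p = 0.0137). The call was lost without control replicate 2 or without control replicate 3 (adjusted p = 0.0587 in each case). *Spry4* measured 13.2, 13.9 and 12.9 in controls and 8.06, 12.3 and 9.23 in homozygotes and did not pass the test (log2 -0.44, adjusted p = 0.0626). *Spry1* measured 8.11 to 10.2 in controls and 10.4 to 12.6 in homozygotes and did not pass either (log2 0.33, adjusted p = 0.225). The related inhibitors *Spred1* (-0.36, adjusted p = 0.0162) and *Spred2* (-0.34, adjusted p = 0.0231) were called lower, in 15 and 13 of 19 alternatives.

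*Myc* was the one gene of this list called higher, with values of 36.7, 39.3 and 31.7 in controls, 31.9, 31.4 and 29.0 in heterozygotes and 41.7, 47.1 and 50.2 in homozygotes. Its log2 difference was 0.58 from heterozygotes (adjusted p = 0.00204), called in all 19 alternatives, and 0.37 from controls (adjusted p = 0.0221). The call against controls was lost in 4 of 19 alternatives, without the mean-variance trend and without control replicate 3, homozygote replicate 2 or homozygote replicate 3 (adjusted p from 0.0592 to 0.106). *Myc* responds to many signals besides FGF.

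**Figure D5:**
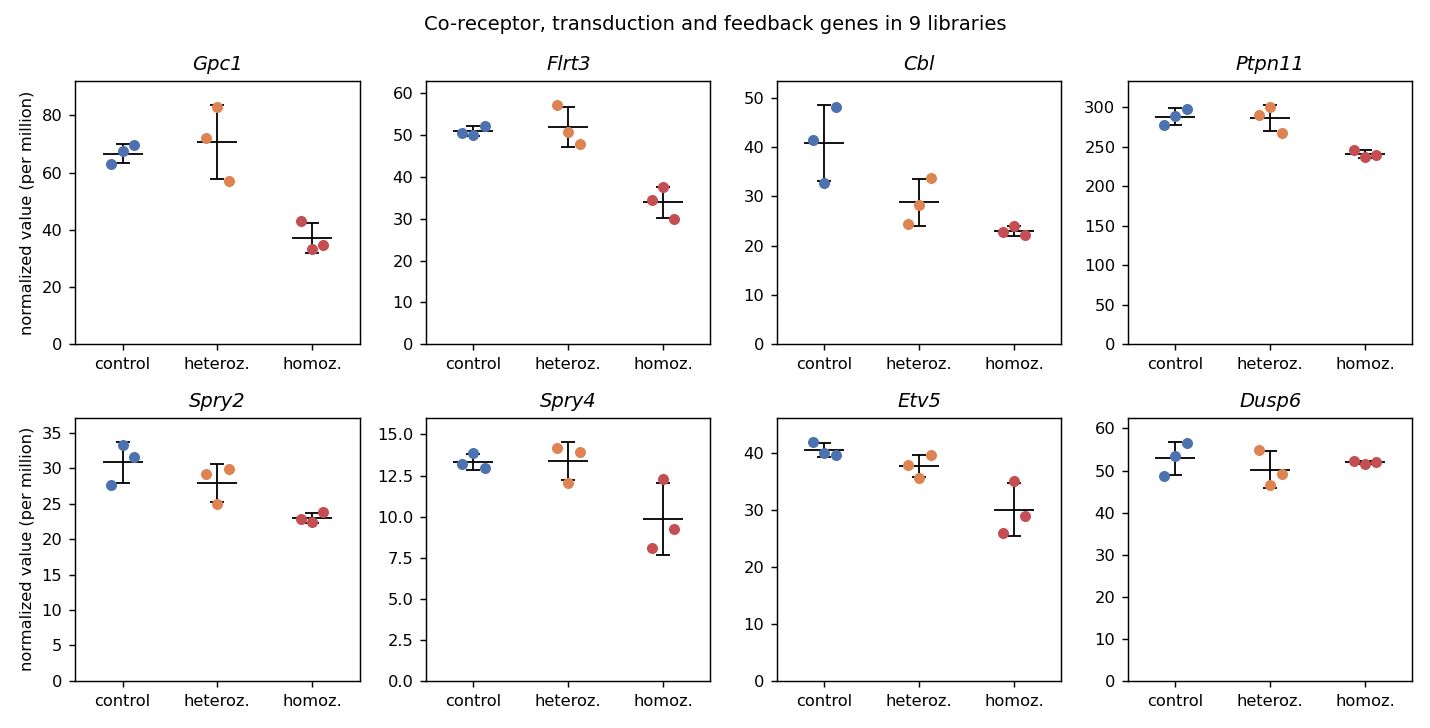
Normalized value (y axis, from 0) of 8 genes around the FGF pathway in the 9 libraries, by genotype, with replicates 1 to 3 from left to right and black bars for the mean and SD. Homozygotes are below all other libraries for *Gpc1* (33.4 to 43.0), *Flrt3* (30.0 to 37.5) and *Cbl* (22.1 to 24.0), and *Dusp6* overlaps across genotypes (46.5 to 56.5).

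No gene of these lists was called between heterozygotes and controls, a comparison in which 20 of all 14011 genes were called. At an unadjusted p under 0.05 the counts were 1 of 27 co-receptor and heparan sulfate genes, 4 of 22 signal transduction genes and 2 of 18 feedback and target genes, where 7.37% of all genes reached that level.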

How the data were processed

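RNA-seq was performed by the authors on 9 libraries with the standard TruSeq kit on a GAIIx instrument, with NCBIM37 and Ensembl gene build 65. The submitters' processing notes name CASAVA 1.8, cutadapt 1.6.1, RSEM 1.20, Bowtie2 0.12.7 and limma, with no role given. The authors deposited 1 table of normalized signal values per gene. Whole reads could be recovered from every value (100%, within 0.001 reads) after taking away 0.5, and the effective size behind each column was its total times a TMM factor of 0.955 to 1.03, as edgeR computes it. Total reads ranged from 4294537 to 11629365, which sets the precision, and intervals reflect the spread between pools only. No gene of the 14011 fell short of a value of 1 in 3 libraries. Columns were assigned by name: KO columns match the homozygote titles, DH was read as double heterozygote, and the columns named Het were read as controls from the study's methods and tables of group averages. Libraries are numbered by column.

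Values were analyzed as log2(value + 0.5) with limma 3.58.1 in R 4.3.3 (3 group means, 9 libraries, mean-variance trend, Benjamini-Hochberg adjustment over 14011 genes), and an adjusted p under 0.05 was a call. With 3 libraries per group, an exact permutation test cannot give a p below 0.1. The 19 alternative fits included pseudocounts of 0.1 and 1, a minimum value of 5 in 3 libraries, a fit of the 2 groups compared, quantile normalization and no trend. The others were edgeR 4.0.16 and DESeq2 1.42.0 (on reads), a loess correction for exonic length, a replicate block and leaving out each library. A threshold of 0.01 was applied to the main fit and is not counted among the 19. On recovered reads edgeR called 2212 genes between homozygotes and controls and 21 between heterozygotes and controls. The fit was tested on simulated data. Positions, lengths and sequences came from GENCODE M1 on NCBIM37, which placed 13987 genes.

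Members and lists were chosen with earlier results of these data known. Named genes were the members, other Fgf genes, up to 5 called genes per list and direction by smallest adjusted p, *Spry1*, *Spry2*, *Spry4*, *Dusp6*, *Etv4*, *Etv5*, *Fgfrl1*, nearest neighbors, the 5 genes most correlated with *Fgf13*, and *Ctcf*. Some items that this rule covers are not reported here. Where nothing states separate litters, p-values measure the spread between pools.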

Additional observations from a re-analysis of the deposited data

How the results depend on the processing

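The log2 difference of *Fgf13* between homozygotes and controls stayed between 1.53 and 1.601 and that between homozygotes and heterozygotes between 1.36 and 1.44 over 19 alternatives. None of the 7 relatives was called against controls, and none of the 8 members between heterozygotes and controls, under any alternative. The 1 call among the relatives against heterozygotes (*Fgfr1*) became 0 without the mean-variance trend, with the length trend removed (log2 -0.24, adjusted p = 0.0636) and at a threshold of 0.01, and ranged from 0 to 1 over the fits that left out 1 library. Genes called numbered 2133 in homozygotes against controls, 1901 in homozygotes against heterozygotes, and 20 between heterozygotes and controls. Without the trend they were, in this order, 1196, 1063 and 10, at a threshold of 0.01 they were 858, 722 and 13, and with 1 library left out they ranged from 1049 to 2084, from 1023 to 1859 and from 13 to 25. The largest losses came without control replicate 3 (1049), without homozygote replicate 3 (1267 and 1023), without heterozygote replicate 2 (1257) and without heterozygote replicate 3 (1223 and 13). DESeq2 called 40 genes between heterozygotes and controls. The cause of these shifts was not tested, apart from the smaller number of samples.

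Differences near 0 changed sign. *Fgfr3* against controls was 0.0203 with the length trend removed and from -0.19 to 0.0331 with 1 library left out, and against heterozygotes from -0.0540 to 0.18. Between heterozygotes and controls, *Fgf9* was -0.0311 by edgeR, -0.0276 by DESeq2 and from -0.0700 to 0.16 with 1 library left out, *Fgf1* was from -0.30 to 0.13 and *Fgfr2* from -0.10 to 0.12. None of these was called. *Fgf12* and *Fgf10* have no value under the minimum of 5 in 3 libraries, which they did not reach. Correlations of deviations between same-numbered libraries ran from -0.14 to 0.13, so the numbers do not pair them. With a replicate block 1756, 1553 and 15 genes were called, and 0, 1 and 0 members, *Fgf13* being left out of the homozygote counts of members. Genes with few reads, *Fgf12*, *Fgf10* and *Fgf7* among them, are limited by depth.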

Other observations

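Genes farther from *Fgf13* than its nearest neighbors were listed after their values were seen. Of the 9 other genes of the table that start within 3 Mb of it, 3 were called in homozygotes against controls, and all 3 were lower, beside 15.2% of all genes called and 8.03% called lower. *Sox3*, which encodes a transcription factor of neural progenitors and starts 1325 kb away, averaged 4.51 ± 0.81 in controls, 4.38 ± 2.05 in heterozygotes and 1.31 ± 0.38 in homozygotes (SD, n = 3), a log2 difference of -1.48 from controls (SE 0.29, limma adjusted p = 0.00441). *Fhl1*, a LIM domain protein gene of muscle that starts 2836 kb away, averaged 126 and 104 in controls and homozygotes (log2 -0.28, adjusted p = 0.00978). *Arhgef6*, a guanine nucleotide exchange factor gene 2229 kb away, averaged 18.2 and 11.95 (log2 -0.59, adjusted p = 0.0222) and was not called against heterozygotes (-0.19, adjusted p = 0.462). *Fgf13* was the one gene of this stretch that was higher by more than 0.2 on the log2 scale.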
